A study of Mus musculus with 2 samples.

Results

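The 10 genes described here are G1 cyclins, *Myc* and inhibitors of cyclin-dependent kinases (CDKs) in cells of the amputated mouse digit. They were found by symbol in both gene lists, where all 10 were present among 33696 genes: the cyclins *Ccnd1*, *Ccnd2*, *Ccnd3* and *Ccne1*, the transcription factor gene *Myc*, and the inhibitors *Cdkn1a*, *Cdkn1b*, *Cdkn1c*, *Cdkn2b* and *Cdkn2c*. All 10 had UMIs in each library.

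Hindlimb digits 2 and 4 of ICR mice were amputated through the middle phalanx at postnatal day 3. At postnatal day 7 they received a bead with FGF8 (500 ng/µl), a fibroblast growth factor, or a control bead with 0.1% bovine serum albumin (BSA), and tissue distal to the stump was collected 24 h later, at postnatal day 8, without its epithelium. Each condition was 1 library of single cells from a pool of 20 digits of 5 mice, male and female together, so the FGF8 and BSA libraries have no replicates, no test across samples was possible, and no p-value is given. The FGF8 library held 7249 barcodes and 124889213 unique molecular identifiers (UMIs, each marking 1 captured transcript), and the BSA library 3703 barcodes and 67739460 UMIs; 6715 and 3252 cells passed the filters, with medians of 12251 and 15377 UMIs, and 4 barcodes occurred in both.

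The pools differed in the sex of their cells. Of cells that could be called by *Xist* and Y-linked genes, 24.6% in FGF8 but 79.3% in BSA were female, and the main ratios are therefore also given within each sex. For each cell type, each library's UMIs were added up and scaled to counts per 1000000 UMIs (CPM). The libraries were compared as log2 ratios, FGF8 over BSA, with exact conditional 95% intervals in parentheses that reflect counting error alone, since animals were pooled. Treatment, pool and library cannot be told apart.

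A cell commits to division in G1, when D-type cyclins with CDK4 or CDK6, and then cyclin E with CDK2, phosphorylate the retinoblastoma protein and release E2F transcription factors. Growth factor signals are known to induce *Ccnd1* and *Myc*. Inhibitors of the Cip/Kip family (*Cdkn1a*, *Cdkn1b* and *Cdkn1c*, which encode p21, p27 and p57) bind cyclin and CDK complexes, and those of the Ink4 family (*Cdkn2b* and *Cdkn2c*, which encode p15 and p18) bind CDK4 and CDK6 themselves.

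Promoter windows were taken from the RefSeq table, which held 6 of the 10 genes, and placed on GRCm39 by exact match. They are printed for 3 genes whose levels were higher in the FGF8 fibroblast-like cells (*Ccne1*, *Cdkn1a* and *Cdkn2b*) and for *Cdkn1b*, whose levels were close in both libraries. *Ccnd1*, *Ccnd2*, *Cdkn1c* and *Myc* were not in the table. Each window is the 250 bases before a transcript start, 5′ to 3′ on the strand of the gene, and capitals mark matches to 1 of 6 motifs on either strand. For *Cdkn1a*, with 2 starts in the table, the start nearer to the annotated gene start is shown. The *Ccne1* start of the table lies 1349 bases inside the annotated gene, so that window falls within the gene span given below, not before it.
*Ccne1*, chr7:37806916-37807165, minus strand: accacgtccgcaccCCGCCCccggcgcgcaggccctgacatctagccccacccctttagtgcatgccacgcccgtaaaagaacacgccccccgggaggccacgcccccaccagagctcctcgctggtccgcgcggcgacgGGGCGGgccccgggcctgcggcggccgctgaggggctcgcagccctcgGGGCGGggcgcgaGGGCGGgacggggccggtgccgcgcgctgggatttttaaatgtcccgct
*Cdkn1a*, chr17:29309703-29309952, plus strand: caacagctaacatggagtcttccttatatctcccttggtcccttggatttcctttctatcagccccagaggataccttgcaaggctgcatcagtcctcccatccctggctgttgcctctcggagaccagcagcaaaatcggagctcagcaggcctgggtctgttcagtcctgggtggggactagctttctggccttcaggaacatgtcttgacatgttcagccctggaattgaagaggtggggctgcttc
*Cdkn1b*, chr6:134897114-134897363, plus strand: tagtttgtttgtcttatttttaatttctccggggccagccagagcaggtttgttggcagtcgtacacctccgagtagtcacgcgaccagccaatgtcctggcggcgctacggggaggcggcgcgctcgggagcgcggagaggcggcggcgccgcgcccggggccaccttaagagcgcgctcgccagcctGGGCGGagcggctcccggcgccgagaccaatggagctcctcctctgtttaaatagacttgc
*Cdkn2b*, chr4:89229270-89229519, minus strand: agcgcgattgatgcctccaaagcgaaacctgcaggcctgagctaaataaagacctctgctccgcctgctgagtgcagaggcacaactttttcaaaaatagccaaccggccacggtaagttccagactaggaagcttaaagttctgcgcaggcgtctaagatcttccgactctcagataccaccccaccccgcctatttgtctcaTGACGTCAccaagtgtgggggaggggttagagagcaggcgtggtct

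The *Cdkn2b* window held the cyclic AMP response element TGACGTCA, which starts 46 bases before the transcript start and occurred in 1.55% of all 32851 windows of this length. The *Ccne1* window held 4 matches to the GC box GGGCGG and the *Cdkn1b* window 1, a motif found in 32.7% of all windows. The other motifs searched were the AP-1 site TGANTCA (6.75% of all windows), the E-box CACGTG (6.02%), the E2F-type site GCGGGAA (3.82%) and the Ets-type site CCGGAAG (6.91%), and none of them was found in these 4 windows. These are matches of letters only.

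Fibroblast-like cells (3272 FGF8, 1659 BSA) were the largest cell type. In them *Ccnd1* and *Cdkn2b* were higher in the FGF8 library by more than 2-fold, *Cdkn1c* was lower by more than 2-fold, and *Ccne1*, *Myc* and *Cdkn1a* were higher by less. *Ccnd2*, *Ccnd3*, *Cdkn1b* and *Cdkn2c* differed by 0.30 or less on the log2 scale. Of the 10 genes, 6 were above 0, where 43.9% of the 20046 genes with at least 10 UMIs were. A log2 ratio above 1 was found for 2 of the 10 (6.51% of all genes) and a ratio below -1 for 1 (5.13%), and their median log2 ratio was 0.44, beside -0.07 over all genes. Scaling by TMM or by the median ratio moved every ratio up by about the size of that shift, so that *Ccnd3* and *Cdkn1b* changed sign under both.

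**Figure D1:**
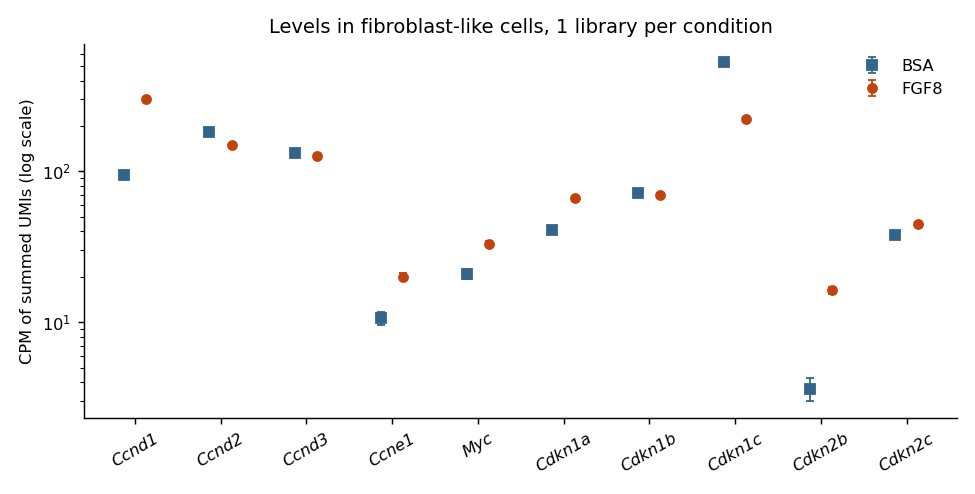
Levels of the 10 genes in fibroblast-like cells of the BSA library (squares) and the FGF8 library (circles), in CPM on a log axis, with exact Poisson 95% intervals that cover counting error only. *Ccnd1* (303 against 94.3 CPM) and *Cdkn2b* (16.2 against 3.59) sat higher in FGF8, and *Cdkn1c* (221 against 531) sat lower.

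Among the D-type cyclins, which pair with CDK4 and CDK6, *Ccnd1* stood apart from its paralogs. *Ccnd1* (ENSMUSG00000070348, chr7:144483668-144493662, minus strand) had 21138 UMIs in FGF8 fibroblast-like cells and 3336 in BSA cells. These are levels of 303 and 94.3 CPM and a log2 ratio of 1.68 (1.63 to 1.74). The ratio was 1.95 in cells called female and 1.74 in those called male, so it was as large within each sex. *Ccnd2* (ENSMUSG00000000184, chr6:127102125-127129156, minus strand) was lower in FGF8, with 149 against 184 CPM and a log2 ratio of -0.30 (-0.35 to -0.26). *Ccnd3* (ENSMUSG00000034165, chr17:47815767-47910624, plus strand) was close in both, with 127 against 132 CPM and a ratio of -0.06 (-0.11 to -0.01). In cells called female and male, *Ccnd2* had -0.35 and -0.26, and *Ccnd3* had 0.005 and -0.125, on opposite sides of 0.

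*Ccnd1* was also unevenly spread over cells. A UMI of *Ccnd1* was found in 58.8% of FGF8 and 48.8% of BSA fibroblast-like cells (exact binomial 95% intervals 57.1–60.5% and 46.4–51.3%), at median depths of 18818 and 20528 UMIs. After each cell had been thinned to 2000 UMIs, which left out 115 FGF8 and 49 BSA fibroblast-like cells, the shares were 25.9% and 13.7%. Erythroid-like cells, which should hold little of the gene, gave 3.13% and 3.90% at that depth and 10.4% and 15.7% unthinned, at medians of 6983 and 18691 UMIs. Cells with 5 or more *Ccnd1* UMIs made up 26.6% (FGF8) and 13.0% (BSA) of fibroblast-like cells, and the highest single cells held 183 and 75 UMIs. The tenth of cells with the most *Ccnd1* carried 64.6% of its UMIs in FGF8 and 57.1% in BSA.

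The cyclin E gene *Ccne1* (ENSMUSG00000002068, chr7:37797404-37808264, minus strand), which acts with CDK2 at the entry into S phase, had 1393 and 375 UMIs. Its level was 19.97 CPM in FGF8 and 10.6 in BSA, a log2 ratio of 0.91 (0.75 to 1.08), with 0.97 in cells called female and 0.96 in those called male. *Myc* (ENSMUSG00000022346, chr15:61857227-61862223, plus strand), a driver of growth and ribosome synthesis, had 2308 and 741 UMIs. *Myc* levels were 33.1 and 20.9 CPM, a log2 ratio of 0.66 (0.54 to 0.78), and the ratio was 0.89 in cells called female and 0.67 in those called male. For both genes the interval lay above 0 in the whole cell type and in each sex.

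Of the Cip/Kip inhibitors, 1 was higher, 1 was close and 1 was lower in FGF8. *Cdkn1a* (ENSMUSG00000023067, chr17:29309936-29319701, plus strand), a target of p53 that arrests the cycle, had 66.7 against 40.9 CPM, from 4653 and 1448 UMIs. This is a log2 ratio of 0.71 (0.62 to 0.79), with 0.79 in cells called female and 0.91 in those called male. *Cdkn1b* (ENSMUSG00000003031, chr6:134897364-134902476, plus strand), which holds resting cells out of the cycle, had 69.7 against 71.3 CPM, and the interval of its ratio included 0 (-0.10 to 0.04). The *Cdkn1b* ratio was -0.11 in cells called female and 0.07 in those called male. *Cdkn1c* (ENSMUSG00000037664, chr7:143012069-143014806, minus strand), an imprinted gene linked to cell cycle exit in development, had 221 against 531 CPM, from 15402 and 18802 UMIs. Its log2 ratio was -1.27 (-1.30 to -1.24), with -1.22 in cells called female and -1.12 in those called male. Cells with 5 or more *Cdkn1c* UMIs made up 27.8% of FGF8 and 49.0% of BSA fibroblast-like cells, and after thinning to 2000 UMIs a UMI was found in 28.8% and 43.9%. Unthinned, the shares were 69.2% and 81.6%. Erythroid-like cells gave 2.51% and 2.60% at 2000 UMIs and 7.67% and 12.05% unthinned.

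The Ink4 inhibitors differed from each other. *Cdkn2b* (ENSMUSG00000073802, chr4:89223204-89229276, minus strand), a known target of transforming growth factor beta signalling, had 1133 UMIs in FGF8 and 127 in BSA fibroblast-like cells. Its levels were 16.2 and 3.59 CPM, a log2 ratio of 2.18 (1.91 to 2.46), with 2.56 in cells called female and 2.48 in those called male. Few cells carried it: 12.5% of FGF8 and 4.94% of BSA cells had a UMI, against 0.326% and 1.20% of erythroid-like cells. After thinning to 2000 UMIs the shares were 2.22% and 0.621%, against 0% of erythroid-like cells in each library. *Cdkn2c* (ENSMUSG00000028551, chr4:109517957-109524386, minus strand) had 44.5 against 38.1 CPM, a log2 ratio of 0.23 (0.13 to 0.32), with 0.24 both in cells called female and in those called male.

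The sums of fibroblast-like cells also held markers of other cell types. Of 7 neutrophil markers, 6 were higher in FGF8, with a summed level of 32.9 against 15.6 CPM, *S100a9* most abundant and *Ly6g* at 0. Macrophage markers summed to 31.7 and 29.3 CPM, keratinocyte markers to 61.9 and 65.4 CPM, and erythroid markers, mainly globins, to 1393 and 1516 CPM. Of 7 tenocyte markers, 1 was higher in FGF8, *Thbs4* at 451 against 176 CPM, and their sums were 852 and 897 CPM. Smooth muscle or pericyte markers summed to 442 and 543 CPM, osteoblast markers to 333 and 305 CPM and chondrocyte markers to 257 and 282 CPM. The 9 fibroblast markers themselves were all lower in FGF8, with 24002 against 44189 CPM. The part of these differences in the ratios above was not tested.

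The fibroblast-like cells were not uniform, and the *Ccnd1* difference lay mainly in 1 group of them. Re-clustering, on variable genes that left out the 10 genes, the gene lists used here, the genes the study lists as different and X- and Y-linked genes, gave 6 subclusters. They were led by *Chodl* (699 FGF8 and 489 BSA cells), by *Prg4* with *Il11* and *Mmp3* (937 and 239), by *Fmod* and *Comp* (501 and 325), by *Lpl* and *Dlk1* (466 and 258), by *Coch* (295 and 204) and, with few UMIs per cell (medians 2598 and 3182), by *Lars2* (374 and 144). The leading genes of the Prg4-led cells also included the histone genes *H2ac8* and *H1f5*. Of these cells, 67.8% in FGF8 and 45.2% in BSA held UMIs of both *Mki67* and *Top2a*, genes of proliferating cells, where the other 5 subclusters had shares between 3.27% and 24.6%, and their median depths were 34789 and 30919 UMIs. *Prg4* encodes lubricin, the lubricant of joint surfaces.

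In the Prg4-led subcluster *Ccnd1* had 523 against 86.4 CPM, a log2 ratio of 2.60 (2.48 to 2.71). In the Chodl-led cells it had 74.8 and 74.0 CPM, a ratio of 0.02 (-0.13 to 0.16), and in the Coch-led cells 202 and 194 CPM, a ratio of 0.06 (-0.10 to 0.21). Both intervals included 0. The Fmod-led cells lay between, with 114 and 68.3 CPM and a ratio of 0.74 (0.60 to 0.89), while the Lpl-led cells had less in FGF8, with 90.0 and 119 CPM and a ratio of -0.40 (-0.54 to -0.25). The Lars2-led cells, with 268 and 31 UMIs, had a ratio of 1.73 (1.19 to 2.31).

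The Prg4-led subcluster held 28.6% of the FGF8 fibroblast-like cells and 47.1% of their UMIs, but 81.2% of their *Ccnd1* UMIs. In BSA it held 14.4% of the cells, 21.2% of the UMIs and 19.5% of the *Ccnd1* UMIs. Without this subcluster, an alternative chosen after seeing the data, the remaining 2335 FGF8 and 1420 BSA cells had 107 and 96.4 CPM of *Ccnd1*, a log2 ratio of 0.16 (0.09 to 0.23) in place of 1.68. The clustering of all cells at a resolution of 0.2 separated cells led by *Prg4* from the cluster named fibroblast-like, and *Ccnd1* had a ratio of -0.03 in the latter.

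Other members were spread differently over the subclusters. *Cdkn1c* was lower in FGF8 in the Prg4-led (-1.42), Fmod-led (-1.16), Lpl-led (-1.13) and Lars2-led cells (-1.13), less so in the Chodl-led cells (-0.37), and had 245 and 239 CPM in the Coch-led cells, a ratio of 0.04 (-0.10 to 0.17). That exception depended on the genes used for clustering: with all variable genes, the Coch-led cells had a ratio of -0.25 (-0.39 to -0.11). The level of *Cdkn1c* was lowest in the Prg4-led cells, at 61.9 CPM in FGF8 and 166 CPM in BSA, and highest in the Lpl-led cells, at 499 and 1094 CPM. The Prg4-led cells thus had the highest *Ccnd1* and the lowest *Cdkn1c* of the 6 subclusters in the FGF8 library, while in the BSA library the Coch-led and Lpl-led cells had more *Ccnd1* than they did.

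*Cdkn2b* also lay largely in the Prg4-led cells, which held 78.0% of its UMIs in FGF8 and 40.2% in BSA. Its levels there were 26.9 and 6.79 CPM, a ratio of 1.99 (1.58 to 2.42), but unlike *Ccnd1* it kept a ratio of 1.31 (0.93 to 1.70) over the other fibroblast-like cells. Among those, the ratio was 1.36 (0.77 to 1.98) in cells without UMIs of *Mki67* and *Top2a*. With UMIs of both genes it was 0.32 (-0.30 to 0.97). *Cdkn1a* had a ratio of 0.14 (0.01 to 0.27) in the Prg4-led cells, where both libraries were high (86.9 and 79.1 CPM), and ratios between 0.44 and 0.97 in the other 5 subclusters. The highest, in the Lars2-led cells, was not stable: with all variable genes used for clustering it was 0.09 (-0.59 to 0.80), from 66 and 26 UMIs, and the Prg4-led cells had 0.11. *Myc* was above 0 in all 6, between 0.17 and 0.90, with intervals that included 0 in the Lpl-led and Lars2-led cells. With all variable genes, those intervals lay above 0 and that of the Chodl-led cells, 0.31 (-0.20 to 0.82), included 0. *Cdkn2c* had -0.43 (-0.57 to -0.29) in Prg4-led and -0.25 (-0.47 to -0.03) in Chodl-led cells. It had 0.76 in Fmod-led and in Lpl-led, 0.44 in Coch-led and 0.49 (-0.35 to 1.42) in Lars2-led cells. With all variable genes, its interval excluded 0 in the Prg4-led cells alone (-0.39, -0.52 to -0.27).

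**Figure D2:**
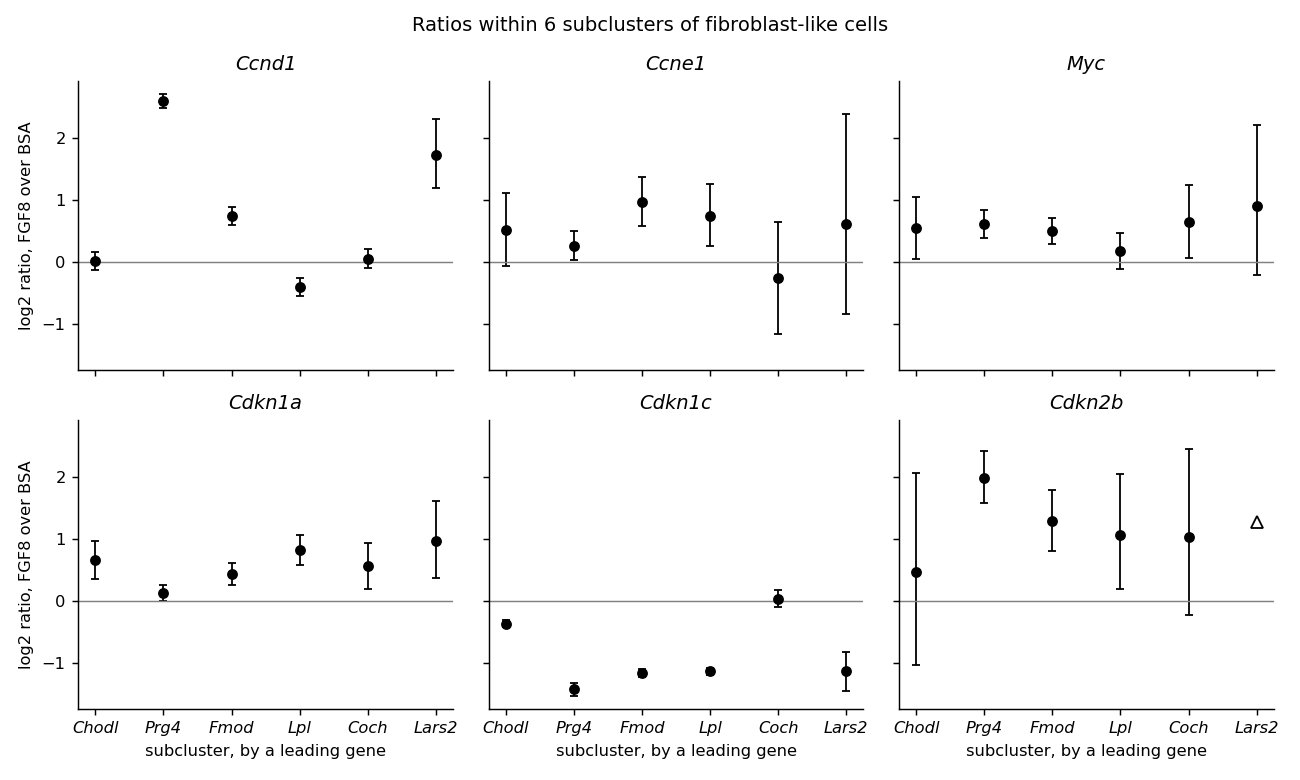
Log2 ratios of CPM, FGF8 over BSA, of 6 genes within 6 subclusters of fibroblast-like cells, each named by a leading gene, with exact conditional 95% intervals (counting error only); the triangle is a lower bound against a floor of 3 counts. *Ccnd1* was high in the Prg4-led cells (2.60) and near 0 in the Chodl-led and Coch-led cells, whereas *Cdkn1c* was below 0 in 5 of the 6 and at 0.04 in the Coch-led cells (-0.25 with all variable genes used for clustering).

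More fibroblast-like cells held UMIs of *Mki67* and *Top2a* in the FGF8 library, so the levels were also compared within like cells. No background share of these genes in another cell type is given, so the classes rest on detection alone. UMIs of both *Mki67* and *Top2a* were found in 960 FGF8 cells (29.3%) and 198 BSA cells (11.9%), and neither gene in 1641 (50.2%) and 1266 (76.3%), which leaves 671 and 195 cells with only 1 of them. After thinning to 5000 UMIs the shares with both were 17.9% and 6.76%. The cells with both were deeper, with medians of 34107 and 32688 UMIs against 14215 and 18569 in cells with neither.

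Over all fibroblast-like cells, *Ccnd1*, *Ccne1*, *Cdkn1a*, *Cdkn2b* and *Cdkn2c* were higher in cells with both genes in each library, with intervals above 0. *Ccnd1* was higher by 1.36 on the log2 scale in FGF8 and by 0.51 in BSA, *Cdkn2b* by 0.74 and 1.79, and *Cdkn1a* by 0.12 and 0.67. *Ccne1* was higher by 1.89 on the log2 scale in FGF8 and by 3.10 in BSA, and *Cdkn2c* by 1.82 and 2.30. *Cdkn1c* had the opposite pattern, with 92.8 CPM in cells with both and 399 CPM in cells with neither in FGF8, a ratio of -2.10, and 202 and 624 CPM in BSA, a ratio of -1.63. *Ccnd2* was likewise lower in cells with both, by -0.97 and -0.74. *Ccnd3* was lower too, by -0.31 and -0.35. *Cdkn1b* differed by 0.05 and -0.23, and *Myc* by 0.63 in FGF8 and 0.16 (-0.13 to 0.44) in BSA. Within Prg4-led cells, *Cdkn1a* was lower with both genes than with neither, at 76.2 against 159 CPM in FGF8 and 72.5 against 106 in BSA. *Cdkn2b* there had 20.5 against 52.6 CPM in FGF8 and 5.48 against 6.94 in BSA. *Ccnd1* there had 507 against 557 CPM in FGF8 but 99.7 against 62.1 in BSA. In the other fibroblast-like cells, *Ccnd1* and *Cdkn2b* were higher with both genes in each library. *Cdkn1a* had 45.8 against 47.0 CPM there in FGF8 and 46.3 against 30.2 in BSA.

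Between the libraries, *Ccnd1* kept its direction in cells with both genes (log2 ratio 1.82) and in cells with neither (0.96), and so did *Cdkn1c* (-1.12 and -0.64) and *Cdkn2b* (1.30 and 2.35). In cells with only 1 of the genes these 3 had ratios of 1.30, -1.36 and 1.94. In cells with both genes, *Cdkn2b* had 1.90 (1.28 to 2.61) in Prg4-led but 0.32 (-0.30 to 0.97) in other fibroblast-like cells. *Myc* was higher in cells with both (0.94) and with neither (0.48), but had -0.11 (-0.37 to 0.16) in cells with 1. It was also not higher in every part of these classes, with -0.19 (-0.61 to 0.23) in Prg4-led cells with neither gene and -0.33 (-0.65 to -0.01) in the other fibroblast-like cells with 1. *Ccnd2* had -0.27 in cells with both, 0.02 in cells with 1 and -0.04 in cells with neither, beside -0.30 over all fibroblast-like cells. The value in cells with both joined opposite directions, 0.23 (0.06 to 0.40) in Prg4-led and -0.75 (-0.92 to -0.58) in other fibroblast-like cells. *Ccne1* did not keep its direction: its ratio was -0.18 (-0.39 to 0.03) in cells with both and 1.03 (0.67 to 1.39) in cells with neither. *Cdkn1a* had 0.15 (-0.00 to 0.31) and 0.71 (0.59 to 0.82), and more in cells with 1, at 1.54, with 1.66 (1.09 to 2.29) in Prg4-led and 1.32 (0.99 to 1.67) in other fibroblast-like cells. *Cdkn2c*, above 0 over all fibroblast-like cells, was below 0 in cells with both, at -0.56 (-0.68 to -0.44), and had -0.08 (-0.26 to 0.09) in cells with neither. In cells with 1, *Ccne1* had 0.55 and *Cdkn2c* had -0.40.

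The *Ccnd1* difference in the Prg4-led cells was found with and without these proliferation genes. Prg4-led cells with both genes had 507 and 99.7 CPM of *Ccnd1*, a ratio of 2.35 (2.20 to 2.50), and those with neither, 126 FGF8 and 100 BSA cells, had 557 and 62.1 CPM, a ratio of 3.16 (2.94 to 3.40). In the other fibroblast-like cells the ratio was -0.10 (-0.27 to 0.07) with both genes and 0.13 (0.04 to 0.22) with neither. *Cdkn2b* in Prg4-led cells with neither gene had 52.6 and 6.94 CPM, a ratio of 2.92 (2.24 to 3.69), and the highest FGF8 level among these classes. *Cdkn1a* was also highest there, with 159 and 106 CPM, a ratio of 0.58 (0.38 to 0.79).

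The lower *Cdkn2c* of cells with both genes lay in the Prg4-led cells, with 69.5 against 129 CPM and a ratio of -0.89 (-1.04 to -0.74). The other fibroblast-like cells with both genes had 90.0 and 81.9 CPM, a ratio of 0.14 (-0.09 to 0.36). *Cdkn1c* was lower in FGF8 in each of these 4 classes, from -1.73 in Prg4-led cells with neither gene to -0.57 in the other cells with neither. *Cdkn1b*, close over all fibroblast-like cells, joined opposite directions. Its ratio was 0.61 (0.36 to 0.86) in other fibroblast-like cells with both genes and -0.40 (-0.73 to -0.08) in Prg4-led cells with neither. The remaining classes had *Cdkn1b* intervals that included 0. By subcluster, *Cdkn1b* had -0.68 (-1.13 to -0.22) in Lars2-led and 0.24 (0.08 to 0.40) in Fmod-led cells.

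**Figure D3:**
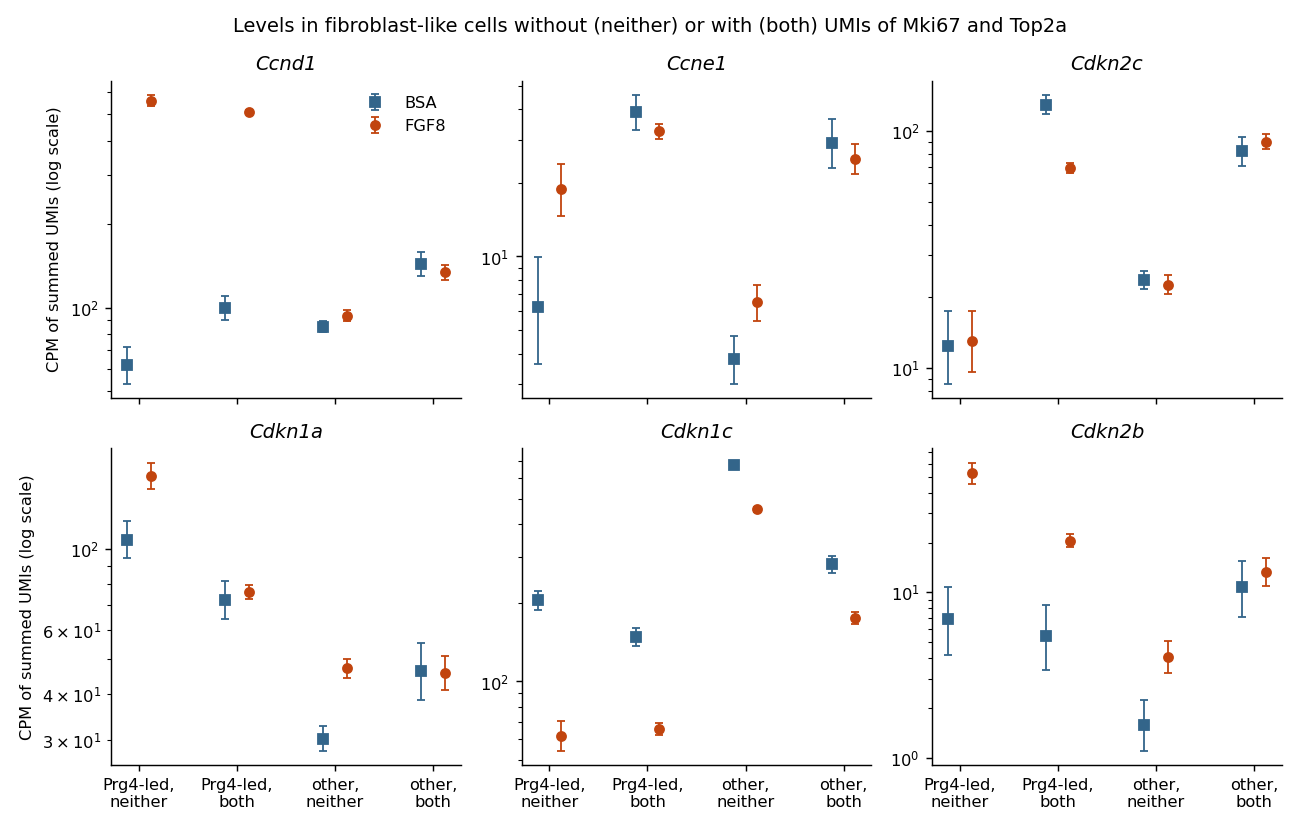
Levels of 6 genes in CPM (log axis) in Prg4-led and other fibroblast-like cells, split into cells with UMIs of neither or both of *Mki67* and *Top2a*, with exact Poisson 95% intervals (squares BSA, circles FGF8). *Ccnd1* was between 507 and 557 CPM in both FGF8 Prg4-led classes, and between 62.1 and 144 CPM in every other class.

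Other cell types had their own levels of these genes in both libraries. *Ccnd1* was highest in Schwann-like and endothelial-like cells, with 496 and 552 CPM in FGF8 and 468 and 410 CPM in BSA. Among the named types, the FGF8 order then ran through fibroblast-like (303), smooth muscle or pericyte-like (243), macrophage-like (227) and chondrocyte-like cells (106 CPM), with the intervals of smooth muscle or pericyte-like and macrophage-like cells overlapping. In BSA, fibroblast-like cells (94.3) came below smooth muscle or pericyte-like (290) and macrophage-like cells (116 CPM). The ratio was 0.09 (-0.03 to 0.20) in Schwann-like cells, -0.26 (-0.40 to -0.12) in smooth muscle or pericyte-like cells, 0.43 (0.29 to 0.56) in endothelial-like cells and 0.96 (0.84 to 1.09) in macrophage-like cells. Endothelial-like cells (142 and 119) come from the clustering at a resolution of 0.2 and lie within a cluster that was left unnamed at 0.05. That cluster had 445 CPM of *Ccnd1* in FGF8 and 335 in BSA, above fibroblast-like cells in both, and is left out of the order.

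Among the named types, *Ccnd2* was highest in smooth muscle or pericyte-like cells, with 533 CPM in FGF8 and 470 in BSA. Fibroblast-like cells followed (149 and 184 CPM), while the unnamed cluster had 204 and 91.1 CPM. *Ccnd3* was highest in neutrophil-like cells (239 and 283 CPM), followed by Schwann-like cells (168 and 176 CPM). The 3 D-type cyclins thus had their highest levels in different cell types. *Cdkn1a* was highest in neutrophil-like cells, with 1168 and 1110 CPM, a ratio of 0.07 (-0.05 to 0.20), and *Cdkn1b* was highest in the same cells (209 and 219 CPM).

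Chondrocyte-like cells (136 and 55), which make cartilage matrix, had the highest *Cdkn1c* and the second highest *Cdkn1a*. Their *Cdkn1c* was 1065 CPM in FGF8 and 2795 CPM in BSA, a ratio of -1.39 (-1.46 to -1.33), and their *Cdkn1a* was 808 and 479 CPM, a ratio of 0.75 (0.64 to 0.87). *Ccnd1* was higher in FGF8 (106 against 34.8 CPM, 1.60, 1.19 to 2.03) and so was *Ccnd2* (74.1 against 36.1 CPM, 1.04, 0.62 to 1.48). *Myc* had the opposite direction from fibroblast-like cells, with 31.1 against 78.4 CPM and a ratio of -1.33 (-1.73 to -0.94). *Cdkn2b* had 66 UMIs in FGF8 and 1 in BSA, a ratio of 5.06 with an interval from 2.53 to 10.38.

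The *Cdkn1c* difference in chondrocyte-like cells was not shared by the sexes. Female-called cells (41 and 40) had 371 and 3388 CPM, a ratio of -3.19 (-3.34 to -3.04), and male-called cells (80 and 11) had 1528 and 1280 CPM, a ratio of 0.26 (0.10 to 0.41). The lower *Myc* was found in both sexes, at -1.23 and -2.00. The higher *Ccnd1* was too, at 1.41 and 2.94, the latter resting on 4 UMIs in 11 male-called BSA cells.

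Neutrophil-like cells had 81.4 CPM of *Ccnd1* in FGF8 and 12.9 in BSA, from 136 and 8 UMIs, a ratio of 2.66 (1.64 to 3.90). Of all 10895 genes tested in these cells, 17.0% had a ratio above 1. Erythroid-like cells, in which little of the gene would be present, had 32.2 and 31.0 CPM. Depths were unlike, with neutrophil-like medians of 2407 and 3214 UMIs. A *Ccnd1* UMI was found in 11.6% and 4.43% of neutrophil-like cells, against 10.4% and 15.7% of erythroid-like cells. After thinning to 2000 UMIs the shares were 8.71% and 2.70%, against 3.13% and 3.90%. *Myc* in neutrophil-like cells had 26 UMIs and 1 UMI. In erythroid-like cells, *Ccnd2* had 12.3 against 28.9 CPM, but ratios there were low for most genes: their median over 7888 genes was -0.47, with 22.7% below -1 and 25.4% above 0. These cells differed strongly in depth between the libraries, with medians of 6983 and 18691 UMIs.

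**Figure D4:**
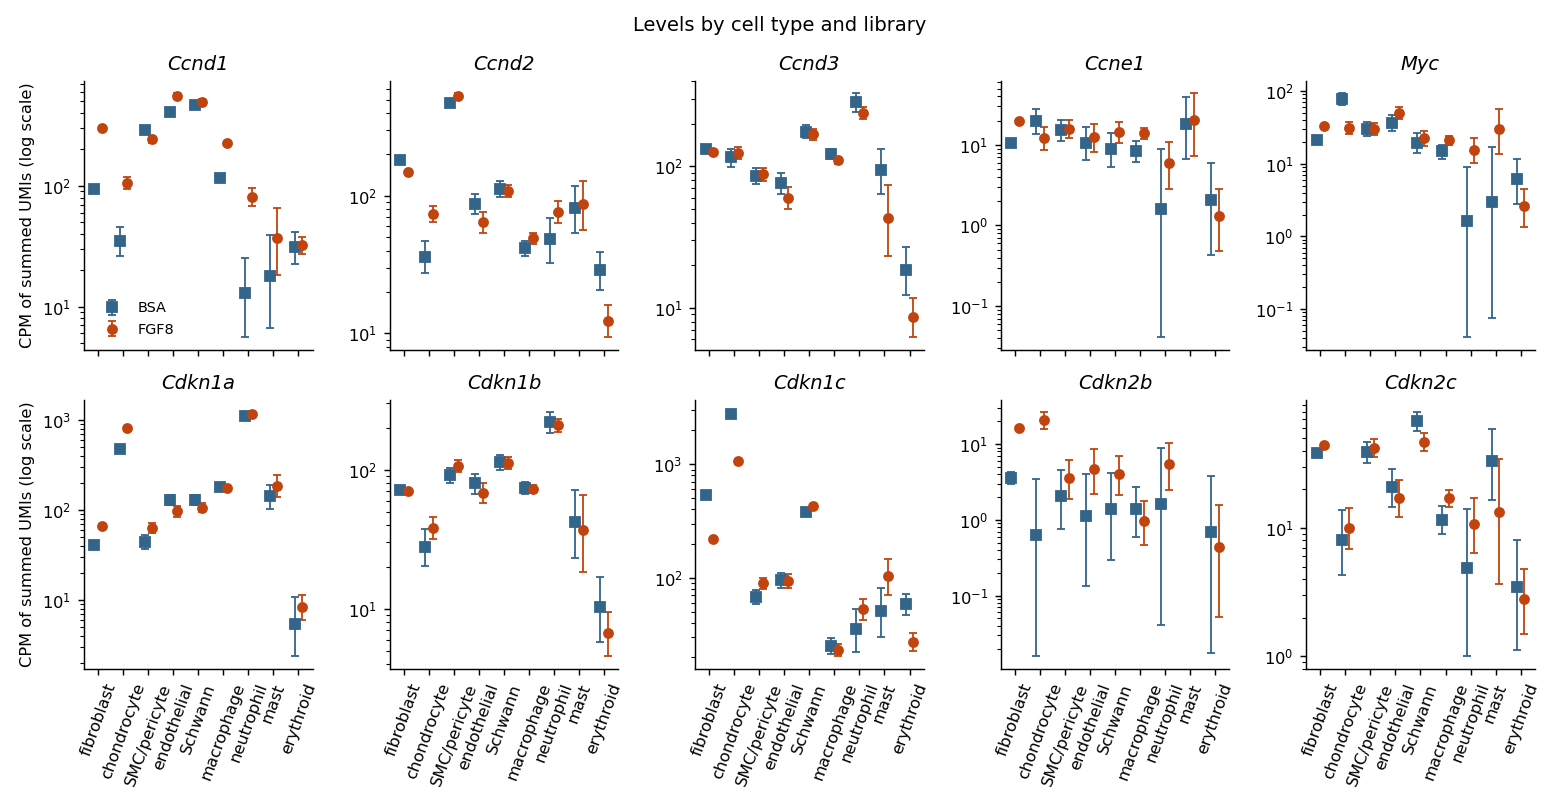
Levels of the 10 genes in 9 cell types of the BSA (squares) and FGF8 (circles) libraries, in CPM on log axes that differ between panels, with exact Poisson 95% intervals (counting error only); types without a UMI are left out. *Cdkn1c* was highest in chondrocyte-like cells (1065 and 2795 CPM), *Ccnd2* in smooth muscle or pericyte-like cells and *Cdkn1a* in neutrophil-like cells.

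The genes whose levels were most like these members over the named cell types were found by Pearson's r of log2(CPM + 10) over 16 points, 8 cell types in 2 libraries, among 12499 genes with at least 500 UMIs. The points share libraries and differ in depth, so r is a description. For *Ccnd1* these genes were *Setd6* (0.94), *Kat2a* (0.93) and *Fancd2* (0.93), for *Ccnd2* *Oaz2* (0.97), *Ehd2* (0.95) and *Kctd10* (0.94), and for *Cdkn1a* *Xylt1* (0.96), *Cd82* (0.96) and *Kdm6b* (0.96). For *Cdkn1c* they were *Itm2a* (0.97), *Col27a1* (0.96) and *Peg3* (0.95), and for *Myc* they were *Pvt1* (0.95), a long noncoding RNA gene beside *Myc*, *Nhej1* (0.93) and *Nsdhl* (0.92).

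Of 28 other genes of the G1/S machinery, 20 had a higher CPM in FGF8 fibroblast-like cells, 3 had a log2 ratio above 1 and none had one below -1, and the median was 0.22. Over all genes tested in these cells, 43.9% were above 0, 6.51% above 1 and 5.13% below -1, with a median of -0.07. The highest was *Cdkn2a*, which encodes p16 and Arf and lies next to *Cdkn2b*, with 582 and 58 UMIs and a ratio of 2.35 (1.96 to 2.76). *Cks1b*, a cofactor of CDKs and of the ligase that degrades p27, followed with 208 and 88.8 CPM, a ratio of 1.23 (1.17 to 1.29). *E2f8*, a repressor of the E2F family, had a ratio of 1.22 (1.00 to 1.44). The partners of cyclin D, *Cdk4* (0.38) and *Cdk6* (0.49), differed less, *Cdk2* had -0.01, and the lowest were *Rbl2* (-0.47), a relative of the retinoblastoma gene, and *Cdk7* (-0.20). Within cells with UMIs of both *Mki67* and *Top2a* the median of this list was -0.05.

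Of 12 genes of the Myc and Max network, 11 had at least 10 UMIs and 5 of these were higher in FGF8, with a median of -0.05, which is near the 43.9% and -0.07 of all genes. The highest were *Mxd3* (0.90) and *Mxi1* (0.17), and the lowest were *Mxd4* (-0.74) and *Mycl* (-0.63, -1.29 to 0.03, from 47 and 37 UMIs). The *Mycl* ratio was 0.55 in cells called female and -1.69 in those called male. *Mxd3*, *Mxi1* and *Mxd4* encode partners of Max that repress Myc targets. All 14 Myc target genes were higher in FGF8, where 43.9% of all genes were, with a median of 0.73, from *Cad* (0.42), of pyrimidine synthesis, and *Eif4e* (0.46), a translation initiation factor, to *Nme1* (0.96), a nucleoside diphosphate kinase, and *Hspd1* (1.22), a mitochondrial chaperone.

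Of 19 p53 target genes, which share a known regulator with *Cdkn1a*, 13 were higher in FGF8, where 43.9% of all genes were, with a median of 0.30. The highest were *Aen* (0.89), an apoptotic nuclease, and *Gdf15* (0.75), a stress-induced cytokine. *Trp53inp1*, a stress-induced gene, was lowest at -1.08 (-1.29 to -0.88), followed by *Zmat3* (-0.41). *Mdm2*, the ligase that degrades p53, had 0.12, and *Ccng1* had 0.13. Of the 43 S phase and 54 G2/M phase genes, 42 and 53 were higher in FGF8, beside the same 43.9% of all genes, with medians of 0.58 and 1.24.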

How the data were processed

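The authors captured cells with 10x 3′ chemistry and deposited raw UMI counts per gene and barcode, made with Cell Ranger 9.0.0 on GRCm39. Cells were kept if they had over 200 but under 7500 genes and under 15% mitochondrial UMIs. Doublets were not called or removed. The libraries were merged (FGF8 first, an order chosen after seeing the data) and clustered in R 4.3.3 (Seurat 5.3.0, sctransform 0.4.2) by SCTransform and CCA on 30 components, at resolution 0.05 with seed 42. Clusters were named from marker lists, and the fibroblast-like cluster was split again at resolution 0.2. Subclusters carry the name of a leading gene. Sums, ratios and intervals were computed in Python 3.11.15 with scipy 1.17.1 and checked on simulated counts, with a minimum of 10 UMIs and a floor of 3 counts where 1 library had none. TMM factors came from edgeR 4.0.16. Since 1 count is 1 transcript end, levels were compared within a gene. Named list genes had at least 100 UMIs and a log2 ratio above 1 or below -1, or were the 2 highest or 2 lowest of a list; *Mdm2*, *Ccng1*, *Cdk2*, *Cdk4* and *Cdk6* were added after their values were seen. The genes, lists and tests were chosen with earlier results of these data known. Gene positions are from GENCODE vM39, and promoter sequences from RefSeq (GRCm38.p6 table). Alternatives were other filters, clusterings, scalings, depths, sexes and cell classes.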

Additional observations from a re-analysis of the deposited data

Results flagged for a closer look

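These results differed in direction between cell types or between the sexes, with counting intervals on opposite sides of 0. The differences themselves were not tested, since each condition was 1 library.

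*Ccnd2* had a log2 ratio of 1.04 in chondrocyte-like and -1.23 in erythroid-like cells, where the median over all genes tested was itself -0.47 and 22.7% of them were below -1. *Myc* had 3.27 in neutrophil-like cells (26 UMIs and 1 UMI) and 3.32 in mast-like cells (9 UMIs and 1 UMI), against -1.33 in chondrocyte-like cells. *Cdkn1c* had 1.02 in mast-like cells (31 and 17 UMIs), against -1.27 in fibroblast-like, -1.10 in erythroid-like and -1.39 in chondrocyte-like cells. A *Cdkn1c* UMI was found in 7 of 57 FGF8 and 3 of 38 BSA mast-like cells. Its BSA level in mast-like cells, 51.3 CPM, lay below the 58.5 CPM of erythroid-like cells, where 10 of 83 had a UMI. Median depths of these BSA cells were unlike, at 7124 and 18691 UMIs.

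*Cdkn1a* in macrophage-like cells had 0.24 in cells called female and -0.353 in those called male. *Cdkn1c* was lower in FGF8 in female-called and higher in male-called cells of 4 types: -1.69 and 0.833 in macrophage-like cells, -0.597 and 0.646 in smooth muscle or pericyte-like cells, -0.363 and 0.968 in Schwann-like cells, and -3.19 and 0.256 in chondrocyte-like cells. The male-called BSA cells of these types numbered 72, 37, 18 and 11. Over both sexes, macrophage-like cells had 23.2 CPM of *Cdkn1c* in FGF8 and 25.3 in BSA. These levels lay below the 27.2 and 58.5 CPM of erythroid-like cells, the latter from 85 UMIs in 10 of 83 cells. After thinning to 2000 UMIs, a *Cdkn1c* UMI was found in 3.44% and 3.60% of macrophage-like cells. The shares of erythroid-like cells were 2.51% and 2.60%, so the order of these types differed between CPM and shares at like depth. In fibroblast-like cells the sexes had the same direction, -1.22 and -1.12.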

How the results depend on the processing

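No paired analysis was possible because each condition was 1 library. Over the 18 alternatives, between 5 and 8 of the 10 genes were higher in FGF8, and their median log2 ratio lay between 0.01 (resolution 0.2) and 0.53. The median of the G1/S machinery list moved from 0.22 to 0.0529 at a resolution of 0.2 and to -0.0510 in cells with UMIs of both *Mki67* and *Top2a*. *Ccnd1* went from 1.68 to -0.0338 at a resolution of 0.2, where only the cluster named fibroblast-like entered (1279 and 887 cells), without the cluster led by *Prg4*. *Ccnd2*, *Myc*, *Cdkn1a*, *Cdkn1c* and *Cdkn2b* kept their direction in all 18 alternatives, *Cdkn1c* between -1.27 and -0.57 and *Cdkn2b* between 0.95 and 2.59, but *Ccnd2* went from -0.30 to -0.04 in cells with neither proliferation gene and was -0.07 (-0.18 to 0.03) in the Prg4-led subcluster. *Myc* had -0.11 in cells with 1 of the genes, a class not among the alternatives. *Ccne1* was below 0 in cells with both proliferation genes, and *Cdkn2c* in 4 alternatives, lowest at -0.56 in those same cells. Of the alternatives, 2, merging the BSA library first and leaving out the Prg4-led subcluster, were chosen after seeing the data. In the Prg4-led subcluster *Ccnd1* lay between 2.28 and 2.53 under other features and at a resolution of 0.1. At 0.3 the subcluster with most *Prg4* held 25 and 6 cells, was led by other genes and gave 2.87 for *Ccnd1* and no *Cdkn2b* value, while the one led by *Il11* (908 and 233 cells) gave 2.60 for *Ccnd1*. Shares of fibroblast-like cells with a UMI fell with thinning for all 10 genes. No depth can show the variation between animals, which 1 pool per condition leaves unmeasured.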
